A study of Mus musculus with 12 samples.

Results

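The NR4A orphan nuclear receptors are the 3 genes Nr4a1 (also called Nur77), Nr4a2 (Nurr1) and Nr4a3 (Nor1), found by their symbols among the 20295 genes of a count table of mouse white adipocytes. The table holds 12 RNA-seq libraries of mature epididymal white adipocytes (eWAs) that were floated from collagenase-digested fat of lean male C57/BL6J mice, embedded in hydrogel at 50000 cells per well and cultured for 2 days. Each group had 3 libraries: vehicle alone (DMSO), isoproterenol, a β-adrenergic agonist, for 3 h (ISO), lipase inhibitors that block ATGL and HSL (Lip), and these inhibitors followed by isoproterenol (Lip+ISO). All groups came from this strain, with no engineered allele or treatment of the mice named, and their age is not given in the sources used here. The study describes the 3 replicates as independent experiments, while the labels do not say which animals they came from. An edgeR p-value therefore rests on the spread between cultures within groups, estimated over all 12 libraries together. Whether this is a spread between animals is not known. The comparisons ask how β-adrenergic stimulation changes the genes, and whether that change differs when the lipase inhibitors are present.

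NR4A proteins are transcription factors of the nuclear receptor superfamily that bind DNA as single molecules, as pairs or, for Nr4a1 and Nr4a2, together with RXR. They are called orphans because no hormone is established as their ligand and their pocket for a ligand is filled by bulky side chains, so their activity is set largely by how much of them is made. Their genes are immediate early genes, and β-adrenergic agonists that raise cAMP are known to switch them on in fat and muscle through protein kinase A and CREB, a transcription factor that binds cAMP response elements (CREs).

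CREs stand in the promoters of many genes that respond to cAMP, so the 250 bases before the annotated RefSeq start of each gene (GRCm38.p6) are printed 5′ to 3′ on the strand of the gene. Capitals mark the short CRE motif TGACG or its reverse complement CGTCA.

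Nr4a1 (chr15:101266596-101266845, plus strand): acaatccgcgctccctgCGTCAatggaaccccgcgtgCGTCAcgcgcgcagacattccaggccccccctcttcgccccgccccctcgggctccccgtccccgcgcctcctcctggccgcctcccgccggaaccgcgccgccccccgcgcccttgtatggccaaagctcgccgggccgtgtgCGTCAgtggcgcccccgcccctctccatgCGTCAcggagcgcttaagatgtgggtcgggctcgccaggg
Nr4a2 (chr2:57124004-57124253, minus strand): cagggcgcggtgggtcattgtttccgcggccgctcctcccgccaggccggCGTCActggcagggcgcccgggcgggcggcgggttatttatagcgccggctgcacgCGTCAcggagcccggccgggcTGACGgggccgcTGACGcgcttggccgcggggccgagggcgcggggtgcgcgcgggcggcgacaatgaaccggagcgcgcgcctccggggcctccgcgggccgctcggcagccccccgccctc
Nr4a3 (chr4:48045055-48045304, plus strand): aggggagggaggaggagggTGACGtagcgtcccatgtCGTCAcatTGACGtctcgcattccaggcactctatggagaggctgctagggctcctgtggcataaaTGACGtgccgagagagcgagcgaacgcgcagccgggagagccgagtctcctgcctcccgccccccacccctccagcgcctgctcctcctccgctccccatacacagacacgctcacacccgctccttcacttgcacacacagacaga

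Each of the 3 promoters held 4 short CRE motifs. Over 32841 RefSeq promoters of 27018 mouse genes, cut to the same length and searched on both strands, 17.8% held at least 1 such motif and 45 promoters, or 0.137%, held at least 4. These promoters were not matched for their content of G and C, which was 74.4% in the Nr4a1 window, 80.0% in Nr4a2 and 63.6% in Nr4a3. The shares therefore do not show how rare 4 motifs are among promoters of like content. In Nr4a1 all 4 motifs lay on the minus strand of the gene, with their first bases 233, 213, 69 and 40 bases before the start. The promoter of Nr4a2 held 2 on the minus strand at 200 and 144 bases and 2 on the plus strand at 123 and 111 bases before the start. In Nr4a3 the motifs on the plus strand lay 231, 205 and 147 bases before the start and that on the minus strand 213 bases before it. The full CRE, TGACGTCA, which holds 2 overlapping copies of the short motif, was in none of these windows and in 1.55% of all promoters. The NBRE, AAAGGTCA, to which a single NR4A protein binds, was also in none of them and in 1.34% of all promoters. Among the promoters of the other nuclear receptors, 10 of 61 (16.4%) held at least 1 short CRE motif, and among those of other early genes that respond to cAMP 14 of 20 (70.0%) did. At least 3 were held by 1 of the 61 (1.64%) and 2 of the 20 (10.0%), against 0.688% of all promoters. The 61 promoters are those of 40 genes and the 20 those of 16 genes, so these are shares of promoters and not of genes. A match of letters is not evidence that a factor was bound.

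**Figure D1:**
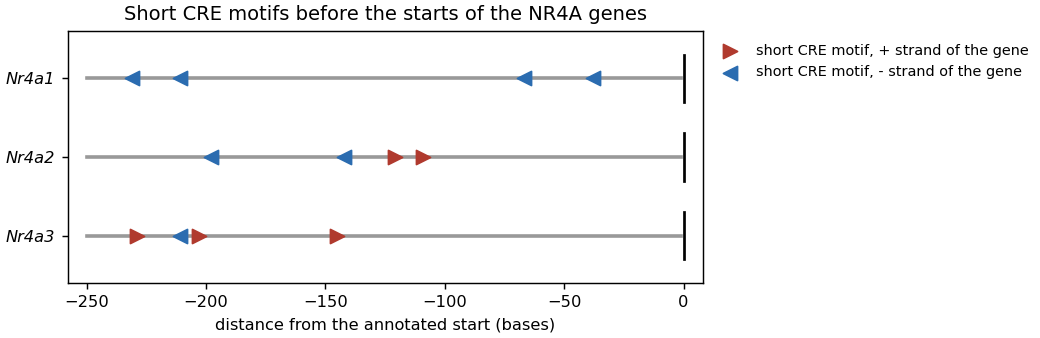
Positions of the short CRE motif in the 250 bases before the annotated start of each NR4A gene. The x axis gives the distance from the start in bases, and triangles point right for motifs on the strand of the gene and left for those on the other strand. Each gene has 4 motifs, which in Nr4a1 fall into a pair far from the start and a pair within 69 bases of it.

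In the table, Nr4a1 (NM_010444) spans chr15:101097277-101105225 on the plus strand of mm9, Nr4a2 (NM_001139509) chr2:56959637-56976414 on the minus strand and Nr4a3 (NM_015743) chr4:48064120-48096224 on the plus strand. No other gene of the table or of the GENCODE vM1 annotation overlapped these spans. The RefSeq start before which the Nr4a3 promoter was cut lay 5943 bp before the start of its span. For Nr4a1 and Nr4a2 the 2 starts were the same. Reads of Nr4a1 were counted over 2476 bp, against 2474 bp of annotated exons. Those of Nr4a2 were counted over 3026 bp, 74.6% of the exon length that GENCODE lists. For Nr4a3 the counted length was 1884 bp, 31.5% of the annotated exon length and equal to the coding sequence with its stop codon, so that reads from its untranslated exons were not counted. Levels per kilobase, which are used below where the 3 genes are set beside each other, are per counted kilobase and rest on these lengths.

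Stimulation with ISO raised all 3 genes from low to high levels. Nr4a1 stood at 16.0, 19.4 and 15.1 CPM (a gene's counts relative to the TMM-scaled library total) in the 3 DMSO libraries and at 454, 281 and 348 CPM in the 3 ISO libraries, replicates 1 to 3 in that order. Nr4a2 went from 7.61, 7.01 and 10.8 CPM to 228, 151 and 179 CPM. Nr4a3, the least counted of the 3 in DMSO by its group mean, went from 5.81, 6.88 and 10.5 CPM to 960, 660 and 802 CPM. The lowest ISO library thus lay above the highest DMSO library for each gene. The fitted log2 fold change was 4.42 ± 0.30 (SE) for Nr4a1, a 21.5-fold rise (edgeR, adjusted p = 5.9e-07). It was 4.46 ± 0.30 for Nr4a2, a 22.0-fold rise (edgeR, adjusted p = 6.6e-07). For Nr4a3 it was 6.72 ± 0.38, a 105-fold rise (edgeR, adjusted p = 1.6e-07). A call needed an adjusted p of 0.05 or less and a log2 fold change of 1 or more in either direction, and all 3 were called higher, as were 5.68% of the 13543 genes tested. Groups without overlap, the ISO libraries higher, were found for 20.7% of the tested genes. Ordered by the size of the rise, Nr4a3 held place 8 of all tested genes, Nr4a2 place 29 and Nr4a1 place 30. The 95% confidence interval of Nr4a3, 5.89 to 7.54, lay above those of Nr4a1, 3.78 to 5.06, and Nr4a2, 3.80 to 5.11. In RNA from whole cultures, fewer cells of a type and less RNA per cell cannot be told apart, nor can more cells and more RNA per cell.

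**Figure D2:**
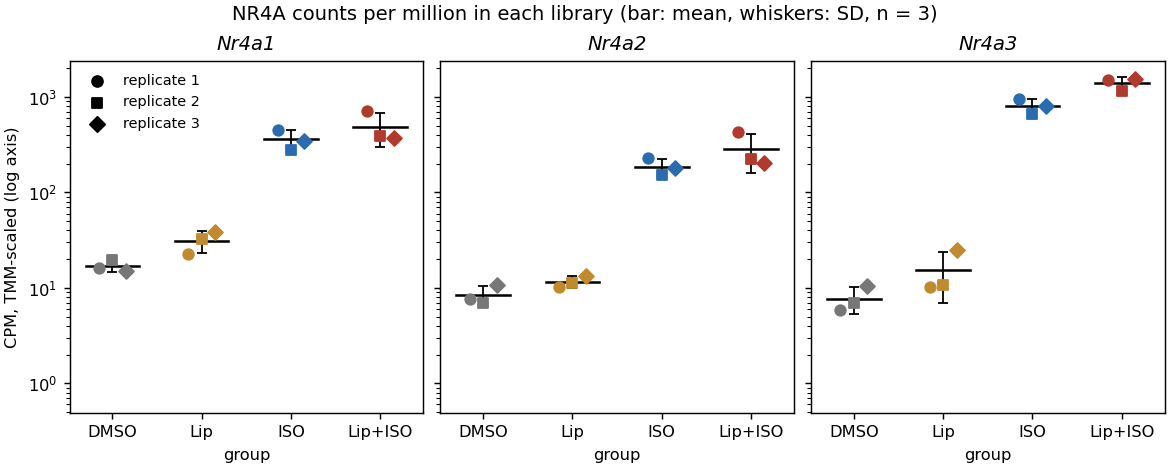
Level of each NR4A gene in each library, in TMM-scaled CPM on a log axis, by group. Points are libraries with a marker for each replicate number, bars are means and whiskers the SD of 3 libraries. The 6 libraries with ISO range from 151 to 1547 CPM and the 6 without it from 5.81 to 38.1 CPM.

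The rise with ISO was also present when the lipase inhibitors had been added. No measure of lipolysis in these cultures was among the data used here. Against the Lip libraries, in which Nr4a1 stood at 22.6, 32.8 and 38.1 CPM, the Lip+ISO libraries stood at 705, 387 and 370 CPM. Nr4a2 went from 10.3, 11.1 and 13.4 CPM to 432, 221 and 204 CPM. Nr4a3 went from 10.2, 10.7 and 24.9 CPM to 1507, 1167 and 1547 CPM. No library of the 2 groups overlapped for any of the 3 genes, which in this direction was so for 17.2% of the tested genes. The log2 fold changes were 3.96 ± 0.29 for Nr4a1, 4.62 ± 0.30 for Nr4a2 and 6.52 ± 0.37 for Nr4a3, or 15.6-fold, 24.5-fold and 91.7-fold (edgeR, adjusted p = 5.4e-07, 2.1e-07 and 6.6e-08). All 3 were called higher, as were 4.19% of the tested genes, and Nr4a3 held place 7, Nr4a2 place 29 and Nr4a1 place 51 by the size of the rise.

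Set against DMSO, which served as control for the first comparison too, the Lip+ISO libraries showed log2 fold changes of 4.86 ± 0.30 for Nr4a1, 5.08 ± 0.31 for Nr4a2 and 7.52 ± 0.39 for Nr4a3. These are rises of 29.0-fold, 33.7-fold and 183-fold (edgeR, adjusted p = 1.3e-07, 1.2e-07 and 3.0e-08). All 3 were called higher and none overlapped, as were 4.97% and 18.2% of the tested genes. The difference between the response to ISO with and without the inhibitors, which bears on whether lipolysis is needed for the rise, was tested as an interaction. Its log2 value was -0.46 ± 0.37 for Nr4a1 (95% interval -1.26 to 0.34), 0.16 ± 0.38 for Nr4a2 (-0.67 to 0.99) and -0.20 ± 0.44 for Nr4a3 (-1.14 to 0.75). None of the 3 was called (edgeR, adjusted p = 0.645, 0.903 and 0.892), while 0.406% of the tested genes were called higher and 0.340% lower. In a fit with a replicate block, 131 genes rather than 46 were called lower, and again none of the 3. The intervals leave room for a response changed by up to a log2 value of 1.26 in size, and the sign of the difference turned for Nr4a2 without Lip+ISO replicate 1 (-0.27) and for Nr4a3 without Lip replicate 3 (0.37).

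**Figure D3:**
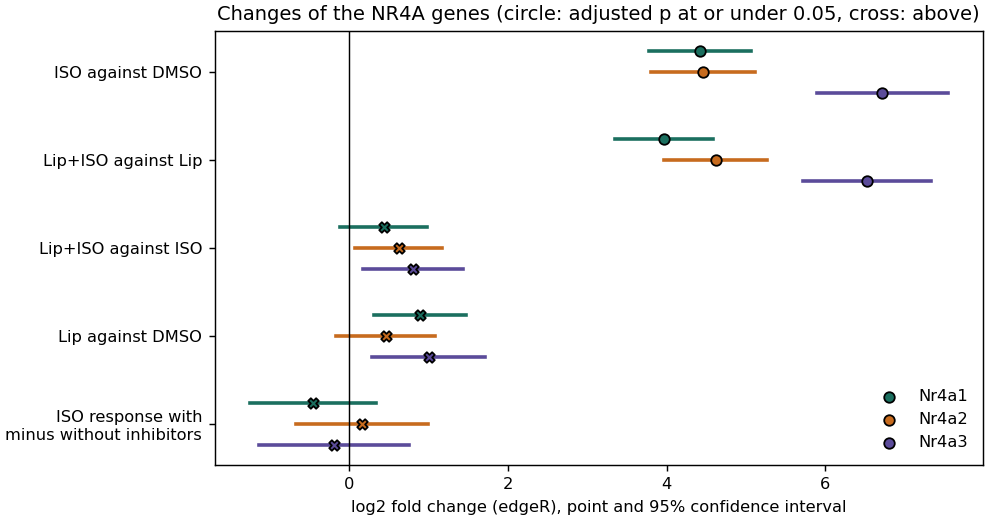
Fitted log2 fold change of each NR4A gene (x axis) in each comparison except Lip+ISO against DMSO, with its 95% confidence interval as a line. Circles have an adjusted p at or under 0.05 and crosses do not. Both responses to ISO lie between 3.96 and 6.72, with Nr4a3 on the right, and the effects of the inhibitors and the difference of the responses lie between -0.46 and 1.00.

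With ISO present in both groups, all 3 group means were higher with the inhibitors than without, but none of the 3 genes was called. The mean of Nr4a1 was 488 ± 189 CPM (SD, n = 3) in Lip+ISO and 361 ± 87.0 CPM in ISO. The libraries overlapped, since Lip+ISO replicates 2 and 3 (387 and 370 CPM) lay below ISO replicate 1 (454 CPM). The log2 difference of 0.43 ± 0.25 (edgeR, adjusted p = 0.327) fell to 0.07 without Lip+ISO replicate 1. Nr4a2 averaged 286 ± 127 CPM in Lip+ISO and 186 ± 38.9 CPM in ISO, again with overlap, and its log2 difference of 0.62 ± 0.25 (edgeR, adjusted p = 0.161) was 0.19 without that library. Nr4a3 averaged 1407 ± 209 CPM in Lip+ISO and 808 ± 150 CPM in ISO, and every Lip+ISO library lay above every ISO library, as for 11.9% of the tested genes. Its log2 difference was 0.80 ± 0.29 (95% interval 0.17 to 1.43; edgeR, adjusted p = 0.115). The value of Nr4a3 passed the adjusted p when a block for the replicate number was added to the fit (0.79, edgeR, adjusted p = 0.0206), when the 2 groups alone were fitted (0.80, adjusted p = 0.0214) and without Lip replicate 3 (0.80, adjusted p = 0.0216), in each case at a size under the log2 fold change of 1. In this comparison 0.790% of the tested genes were called higher and 4.36% were higher at the adjusted p with no limit on size.

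The inhibitors alone left the genes at low levels. Nr4a1 averaged 31.2 ± 7.89 CPM in Lip and 16.8 ± 2.25 CPM in DMSO, and each Lip library lay above each DMSO library. Such a separation was found for 5.19% of the tested genes. Its log2 difference of 0.89 ± 0.27 (95% interval 0.31 to 1.48) was not called (edgeR, adjusted p = 0.678). By the DESeq2 Wald test its adjusted p was 0.094, also short of a call. Nr4a2 averaged 11.6 ± 1.63 CPM in Lip and 8.47 ± 2.04 CPM in DMSO, groups that overlapped, with a log2 difference of 0.46 ± 0.29 (edgeR, adjusted p = 1.00). Nr4a3 averaged 15.3 ± 8.38 CPM in Lip and 7.71 ± 2.43 CPM in DMSO. Its log2 difference of 1.00 ± 0.33 (95% interval 0.29 to 1.71, edgeR, adjusted p = 0.764) was 0.43 without Lip replicate 3, the library at 24.9 CPM. The adjusted p of Nr4a3 by the DESeq2 Wald test was 0.657. Within the same-numbered pairs of libraries, each of the 3 genes was higher in Lip in 3 of 3 pairs, as were 17.8% of the tested genes. A fit with a replicate block gave log2 differences of 0.91, 0.48 and 0.96 for Nr4a1, Nr4a2 and Nr4a3 and called none of them (edgeR, adjusted p = 0.283, 0.735 and 0.212). In this comparison no gene of the table was called higher and 3 (0.0222%) were called lower, or 6 in a fit with a replicate block. By DESeq2 5 were called higher and 6 lower, and 582 genes, or 4.30%, had an unadjusted edgeR p under 0.05.

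The order of the 3 genes changed with ISO. Per counted kilobase, Nr4a1 was the highest in DMSO at 6.80 ± 0.909 CPM per kilobase, ahead of Nr4a3 at 4.09 ± 1.29 and Nr4a2 at 2.80 ± 0.674. In ISO Nr4a3 led at 429 ± 79.6, ahead of Nr4a1 at 146 ± 35.1 and Nr4a2 at 61.5 ± 12.8. The gap between the neighbours Nr4a3 and Nr4a2 in DMSO was about as large as the SD of Nr4a3, while in ISO each gap was larger than the SDs of the genes beside it. In Lip the levels were 12.6 ± 3.19 for Nr4a1, 8.10 ± 4.45 for Nr4a3 and 3.84 ± 0.538 for Nr4a2, the first 2 of which lay about 1 SD of Nr4a3 apart, and in Lip+ISO 747 ± 111 for Nr4a3, 197 ± 76.3 for Nr4a1 and 94.4 ± 41.9 for Nr4a2. The sum over the 3 genes was 13.7 ± 1.58 in DMSO, 24.5 ± 7.76 in Lip, 636 ± 127 in ISO and 1038 ± 189 in Lip+ISO. Their reads made up 0.00292% to 0.00792% of a library without ISO and 0.111% to 0.256% of a library with it.

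A share within a library does not depend on the scaling between libraries, so the make-up of the NR4A pool was compared as the share of each gene in the sum of the 3 levels per kilobase. Nr4a3 made up 29.5 ± 6.04% of the pool in DMSO, 31.7 ± 7.59% in Lip, 67.5 ± 1.04% in ISO and 72.4 ± 6.98% in Lip+ISO. Nr4a1 made up 50.1 ± 8.84% and 52.0 ± 6.12% without ISO, in DMSO and Lip, and 22.8 ± 0.927% and 18.7 ± 4.41% with it. Nr4a2 had 20.4 ± 3.36% in DMSO, 16.2 ± 2.78% in Lip, 9.66 ± 0.199% in ISO and 8.91 ± 2.57% in Lip+ISO. Between ISO and DMSO the share of Nr4a3 differed by 38.0 percentage points, that of Nr4a1 by -27.3 and that of Nr4a2 by -10.7, with no overlap of the libraries. Between Lip+ISO and Lip the differences were 40.7, -33.4 and -7.32 points, also without overlap. Each of these 6 differences had an exact permutation p of 0.1 (two-sided), the smallest that 3 libraries against 3 can give, and 0.167 after Benjamini-Hochberg adjustment over 15 tests, so the design could not reach a p of 0.05. Lip+ISO against ISO gave differences of 4.88 points for Nr4a3, -4.13 for Nr4a1 and -0.75 for Nr4a2, with overlapping libraries (exact permutation p = 0.4, 0.3 and 0.7).

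**Figure D4:**
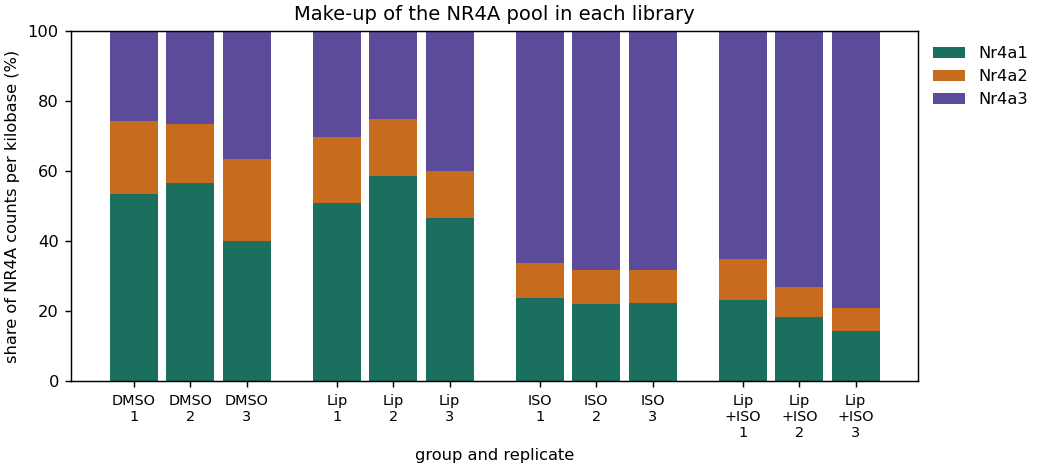
Share of each NR4A gene in the sum of the 3 levels per counted kilobase (y axis, percent), 1 stacked bar per library. The Nr4a3 part spans 65.2% to 79.1% of the bar in the 6 libraries with ISO and 25.1% to 40.0% in the 6 without.

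The order of the replicates was shared by the 3 genes in ISO and Lip and not in DMSO, where Nr4a1 was highest in replicate 2 and lowest in replicate 3 while Nr4a2 and Nr4a3 were highest in replicate 3. In ISO, replicate 1 was the highest library and replicate 2 the lowest for each of the 3 genes, and in Lip replicate 3 was the highest and replicate 1 the lowest for each. In Lip+ISO, replicate 1 was highest for Nr4a1 and Nr4a2, at 1.91 and 2.11 times the lowest library, whereas replicate 3 was highest for Nr4a3. Over the 12 libraries the Pearson correlation of log2 CPM was 0.992 between Nr4a1 and Nr4a2, 0.989 between Nr4a1 and Nr4a3 and 0.993 between Nr4a2 and Nr4a3. These values are descriptions: the libraries form 6 low points without ISO and 6 high points with it, and all 3 genes were read from the same libraries. Of all tested genes, those most like Nr4a1 by this measure were Slc3a2 (0.993), a subunit of amino acid transporters, Nr4a2 itself, and Klf4 (0.992), a zinc finger transcription factor. Closest to Nr4a2 were Nfil3 (0.996), a transcriptional repressor of the bZIP family, Klf4 (0.995) and Tnfaip6 (0.995), a secreted hyaluronan-binding protein. For Nr4a3 they were Dos (0.997), Sik1 (0.996), a kinase that restrains the CREB coactivators, and Ucp1 (0.996), the uncoupling protein of thermogenic fat.

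The NR4A genes were set beside the rest of their superfamily. Of 49 nuclear receptor genes in the table, 39 were tested, and 5 were called higher and 1 lower in ISO than in DMSO, against 5.68% and 1.80% of all tested genes. The 5 include the 3 NR4A genes, and of the 36 other receptors 2 (5.56%) were called higher, which is about the share of all genes. By the size of the log2 fold change Nr4a3 came first, Nr4a2 held place 3 and Nr4a1 place 4 among them. Place 2 was taken by Vdr, the vitamin D receptor (5.54 ± 0.27; edgeR, adjusted p = 4.4e-08). Rorb, an orphan receptor of the ROR group, rose by 3.09 ± 0.35 (adjusted p = 4.3e-05) from a mean of 0.29 CPM. Rarg, a retinoic acid receptor, was the receptor called lower (-1.34 ± 0.12, adjusted p = 5.0e-06). The median log2 fold change was -0.16 over the 36 tested receptors other than the NR4A genes and 0.00 over all tested genes. By level per kilobase among the 49, Nr4a3 moved from place 25 in DMSO to place 1 in ISO, Nr4a1 from place 20 to place 2 and Nr4a2 from place 26 to place 7. In Lip+ISO they held places 1, 3 and 5, with Vdr in place 2. Pparg, the adipogenic receptor that held place 1 in DMSO, was in place 3 in ISO.

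In Lip+ISO against ISO, 1 nuclear receptor was called higher and 3 lower, against 0.790% and 1.20% of all tested genes. Vdr was higher by 1.85 ± 0.22 (edgeR, adjusted p = 1.9e-04), and Nr1d1, the clock repressor REV-ERBα, was lower by 1.54 on the log2 scale (-1.54 ± 0.08, adjusted p = 2.7e-07). Ppara, the fatty acid receptor of oxidative tissues, and Rorb were also called lower (-1.40 ± 0.20 and -1.07 ± 0.31, edgeR adjusted p = 9.1e-04 and 0.048). For comparison, the values of the NR4A genes in the same comparison were 0.43, 0.62 and 0.80, none of them called. Of the retinoid X receptors, with which Nr4a1 and Nr4a2 can pair, Rxra averaged 305 ± 32.6 CPM in DMSO, 211 ± 33.2 in ISO and 299 ± 23.8 in Lip+ISO. Its log2 differences of -0.53 ± 0.13 for ISO against DMSO and 0.51 ± 0.13 for Lip+ISO against ISO had adjusted p = 0.0080 and 0.025 (edgeR) and stayed under the log2 fold change of 1 that a call needed. Rxrg, at 10.2 ± 1.98 CPM in ISO and 5.25 ± 0.517 in Lip+ISO, differed by -0.96 ± 0.21 (edgeR, adjusted p = 0.013), also short of a call.

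**Figure D5:**
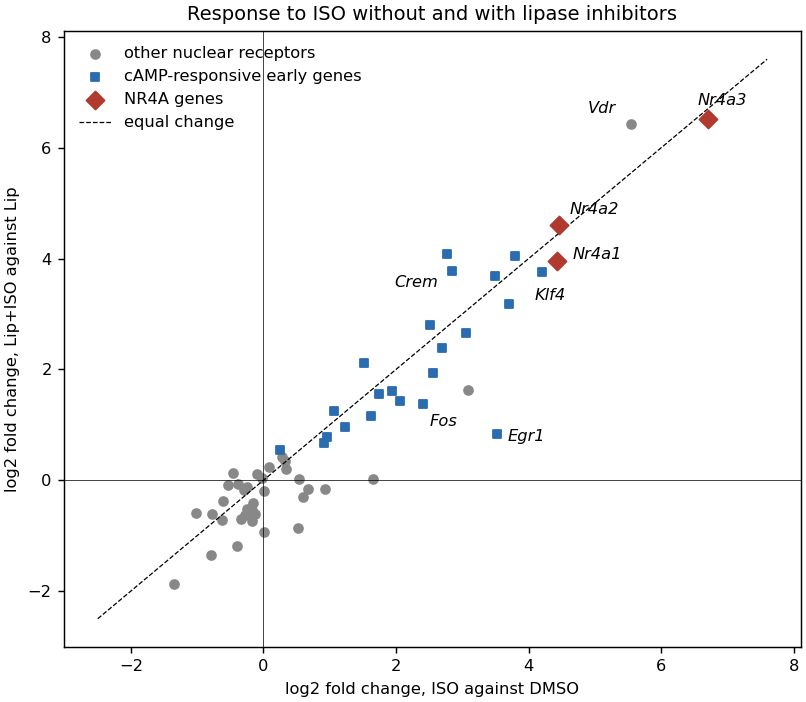
Log2 fold change with ISO without inhibitors (x axis) and with inhibitors (y axis) for the NR4A genes (red diamonds), the other 36 tested nuclear receptors (grey) and the 22 cAMP-responsive early genes (blue), with a dashed line of equal change. The NR4A genes and Vdr lie at the top right, near that line for the NR4A genes, while Egr1 lies far below it (3.52 on the x axis, 0.83 on the y axis).

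Early genes that cAMP is known to induce, the class to which NR4A genes belong, mostly rose as well. Of 22 such genes, all tested, 19 were called higher and 0 lower in ISO than in DMSO, with a median log2 fold change of 2.45, against 5.68% and 1.80% called and a median of 0.00 over all tested genes. This list, like the others used here, was chosen with earlier results of these data known, so its counts are descriptions and not an independent test. The 3 not called were Per1 (0.92), Ier2 (0.96) and Pde3b (0.25). The 4 with the largest rise were Klf4 (4.20 ± 0.26), Ppargc1a (3.79 ± 0.20), the coactivator PGC-1α, Fosb (3.71 ± 0.38), an AP-1 subunit, and Egr1 (3.52 ± 0.14), a zinc finger early response factor. The value of Klf4 lay within 1 SE of those of Nr4a1 (4.42 ± 0.30) and Nr4a2 (4.46 ± 0.30). Lower values were those of Sik1 (3.49 ± 0.25), Crem (2.85 ± 0.10), which encodes the CREB-family repressor ICER among its products, and Fos (2.40 ± 0.18). In Lip+ISO against Lip, 17 of the 22 were called higher, against 4.19% of all tested genes, and the median was 1.78. In Lip+ISO against ISO, 2 were called higher, Pde4d, a cAMP phosphodiesterase (1.29 ± 0.14), and Crem (1.01 ± 0.10), and 2 were called lower, Egr1 (-3.18 ± 0.14) and Fos (-1.46 ± 0.17), against 0.790% and 1.20% of all tested genes. The interaction was called for Egr1 (-2.69 ± 0.19; edgeR, adjusted p = 3.2e-05) and Pde4d (1.31 ± 0.20, adjusted p = 0.0050), and its values for the NR4A genes were -0.46, 0.16 and -0.20, none of them called.

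Genes of the signalling chain that leads to these early genes were counted next. Of 21 tested genes of adenylyl cyclases, protein kinase A, CREB and its coactivators, 2 were called higher and 0 lower in ISO than in DMSO. This was near the 5.68% and 1.80% of all tested genes. The 2 were Sik1, already counted among the early genes above, and the adenylyl cyclase Adcy3 (1.41 ± 0.16). At the adjusted p alone, 4 were higher and 2 lower, against 12.3% and 13.9% of all tested genes. None was called in Lip+ISO against ISO at the limit on size, where 5 passed the adjusted p alone (1 higher and 4 lower, against 4.36% and 4.59% of all tested genes). A further list held 15 tested NR4A partners and coregulators, among them RXR, the NCoR corepressors and LSD1. Of these 1, Ppargc1a, was called higher in ISO than in DMSO and 0 lower, again near the 5.68% and 1.80% of all. Ppargc1a was also counted among the early genes above. At the adjusted p alone 3 were higher and 5 lower, against 12.3% and 13.9% of all tested genes. In Lip+ISO against ISO none of the 15 was called. There 2 passed the adjusted p alone as higher and 1 as lower, against 4.36% and 4.59% of all tested genes. Genes that work in liver, muscle, brain, adrenal gland or fat has placed under NR4A control were also counted. Of 17 tested, 5 were called higher and 0 lower in ISO than in DMSO, where 5.68% and 1.80% of all tested genes were. Ucp1 rose from 0.467 ± 0.105 to 128 ± 23.7 CPM (8.11 ± 0.37) and Star, which carries cholesterol into mitochondria for steroid synthesis, from 50.8 ± 4.52 to 581 ± 72.0 CPM (3.52 ± 0.15). Irf4, a regulator of thermogenic genes, rose by 2.17 ± 0.35 and Spp1, which encodes osteopontin, by 1.26 ± 0.29. The 12 others, such as Pck1, the cytosolic PEP carboxykinase (0.22 ± 0.26), were not called. In Lip+ISO against ISO, Star was called higher (1.36 ± 0.14; edgeR, adjusted p = 6.5e-05) and Pck1 lower (-1.11 ± 0.26, adjusted p = 0.017), while Ucp1 was at 0.86 ± 0.23 (adjusted p = 0.036). No measurement here ties these genes to NR4A binding.

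The 12 libraries held 22632220 to 43707557 counts. Lip replicate 3 stood apart on the third principal component. Without it the difference in the share of Nr4a3 between Lip and DMSO turned to -1.90 points, and 0 genes rather than 3 were called lower in that comparison by edgeR, a count that was 0 or 1 without any single one of the 6 DMSO and Lip libraries. The 6 adipocyte markers summed to 19884 to 32072 CPM over the libraries. Of them Lep, which encodes leptin, was called lower in ISO than in DMSO (147 to 41.3 CPM, -1.84 ± 0.25), as were 1.80% of all tested genes. In Lip+ISO against DMSO 3 were lower at the adjusted p, as were 16.2% of all tested genes. Of these 3 Lep was called, as were 3.19% of all tested genes. Summed levels of the markers of other cell types were higher in each ISO library than in each DMSO library, as were the NR4A genes. Such a separation was found for 20.7% of all tested genes taken singly. The calls of markers given next stand against 5.68% of all tested genes called higher in ISO than in DMSO. The 6 macrophage markers in the table summed to 46.3 to 61.3 CPM in DMSO, 101 to 152 in ISO, 49.4 to 56.7 in Lip and 63.6 to 112 in Lip+ISO, and 4 of them were called higher in ISO than in DMSO. The 6 endothelial markers summed to 89.1 to 174 CPM in DMSO, 222 to 402 in ISO, 44.2 to 156 in Lip and 72.1 to 213 in Lip+ISO (1 called higher in ISO). Those of fibroblasts and preadipocytes summed to 277 to 471, 555 to 744, 386 to 411 and 367 to 449 CPM in the same order (0 of 6 called), those of mesothelium to 21.0 to 46.8, 55.3 to 65.9, 12.8 to 54.7 and 37.3 to 46.1 CPM (1 of 5), and those of lymphocytes and mast cells to 4.66 to 5.16, 7.26 to 10.7, 4.70 to 5.89 and 6.07 to 8.71 CPM (2 of 4 tested). No marker was at 0 throughout a group. The part of these cells in the rise of the NR4A genes was not tested. In Lip+ISO against ISO, where none of the NR4A genes was called, the macrophage markers had a median summed level of 86.3 against 123 CPM, with overlapping libraries. For the endothelial markers it was 167 against 299 CPM, and every Lip+ISO library lay below every ISO library. The same separation held for the fibroblast and preadipocyte markers (medians 395 against 684 CPM) and for those of mesothelium (43.9 against 60.9 CPM). Markers of lymphocytes and mast cells overlapped (8.12 against 9.40 CPM). Of all tested genes taken singly, 13.5% separated in this direction. How these levels relate to those of the NR4A genes was not tested.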

How the data were processed

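RNA-seq was analysed in 12 libraries of mouse eWAs in 4 groups of 3, taken from the sample titles with their replicate numbers. Per the labels and the study's methods, the authors aligned reads to mm9 with STAR 2.4.2a, used HOMER with 1 read kept per position and read length, and counted reads per RefSeq gene with iRNA-seq. The deposited values are raw read counts per gene, with no normalization, beside gene spans and counted lengths. A limit of reads per position could cap high genes. The NR4A genes reached 20.7 counts per base pair, and 1875 genes exceeded 2. Strand use in the counting is not given in the sources used here. A figure legend of the study names SR-3420 as the stimulus of white cells, whereas its text and the labels name ISO, which was used here.

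Counts were tested in R 4.3.3 with edgeR 4.0.16: filterByExpr (13543 genes), TMM (factors 0.924 to 1.07), 1 mean per group over all 12 libraries, two-sided quasi-likelihood F-tests and Benjamini-Hochberg adjustment over all tested genes. The SE is the log2 fold change divided by the square root of F. The prior count for log2 CPM was 2. The test was tried on simulated counts first. DESeq2 1.42.0 was an alternative, as were other scalings, filters, thresholds, a replicate block and fits leaving out a library or a replicate number (15 in all).

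Same-numbered libraries deviated together from their group means (18 pairs, r 0.0373 to 0.369, 17 over 0.1) and differently numbered ones did not (36 pairs, at most 0.0853). Every same-numbered pair exceeded 0.1 except 1 of those between Lip+ISO and ISO. Deviations from a group mean cancel within the group. Low values of differently numbered pairs therefore follow in part from high ones of same-numbered pairs and are not separate evidence of pairing. The NR4A genes and the gene lists were chosen with earlier results of these data known. From each list, the 4 genes with the largest called change in ISO against DMSO or Lip+ISO against ISO were eligible to be named, together with Crem, Egr1, Fos, Sik1, Rxra, Rxrg, Ucp1 and the 3 genes most like each NR4A gene. Per1, Ier2, Pde3b, Pparg and Rarg were named after their values were seen. Promoters are from RefSeq (GRCm38.p6), matched for all 3 genes by symbol and found once each in mm9 by sequence.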

Additional observations from a re-analysis of the deposited data

How the results depend on the processing

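The call of each NR4A gene as higher with ISO, without and with inhibitors, held in every alternative run. In fits leaving out libraries the log2 fold changes for ISO against DMSO ranged from 4.19 to 4.68 (Nr4a1), 4.21 to 4.69 (Nr4a2) and 6.39 to 7.00 (Nr4a3), and for Lip+ISO against Lip from 3.43 to 4.30, 4.13 to 4.93 and 6.26 to 7.08. Of the values on NR4A genes, Nr4a3 in Lip+ISO against ISO passed the adjusted p with a replicate block (0.79) and with the 2 groups alone fitted (0.80), and ranged from 0.67 to 0.94 in the leave-out fits. Both values stayed under the log2 fold change of 1 that a call needed, and the block changed no call of an NR4A gene. Interaction values ranged from -0.27 to 0.37 for Nr4a2, with a changed sign without DMSO replicate 3 (-0.05), Lip+ISO replicate 1 (-0.27) or replicate 1 (-0.08), and from -0.48 to 0.37 for Nr4a3, with a changed sign without Lip replicate 3 (0.37) or replicate 3 (0.00). Share differences in points changed sign between Lip and DMSO for Nr4a1 (-3.13 to 5.19, with -1.41 without Lip replicate 2) and Nr4a3 (-1.90 to 5.71), and between Lip+ISO and ISO for Nr4a2 (-2.10 to 0.46). Counts of genes called higher and lower with no minimum fold were 1670 and 1878 for ISO against DMSO (769 and 244 with it), 1 and 6 for Lip against DMSO (0 and 3), 590 and 621 for Lip+ISO against ISO (107 and 162), 1562 and 2140 for Lip+ISO against Lip (568 and 428), 1649 and 2199 for Lip+ISO against DMSO (673 and 432) and 122 and 98 for the interaction (55 and 46). DESeq2 called 5 higher and 6 lower for Lip against DMSO and 94 lower for the interaction, and the block called 6 and 131 lower in these 2. Leave-out fits gave 431 to 994 higher for ISO against DMSO, the lowest without replicate 3, 0 to 1 higher and 0 to 4 lower for Lip against DMSO, 80 to 182 lower for Lip+ISO against ISO, the lowest without replicate 3, and 6 to 66 higher and 9 to 73 lower for the interaction, the lowest without replicate 2. Fewer libraries enter those fits, and the cause of the other shifts was not tested.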
